A study of Mus musculus with 5 samples.

Results

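The genes described here make cholesterol, sense it, move it within the cell or export it. They are 31 genes taken by symbol from a list written for this purpose, and all 31 were among the 47729 genes of the deposited count table. RNA was sequenced from dermal group 2 innate lymphoid cells (dILC2s), lymphocytes of the skin without antigen receptors, which were sorted from mouse skin by a gate on CD45+ CD90hi cells without CD2 and CD3 and were not stimulated after sorting. The WT group held 3 libraries of C57BL/6 mice (pools 5, 6 and 13), and the *Rag1*-/- group held 2 libraries of mice on the same background (pools 2 and 7), which carry the deletion in every cell and lack mature T and B cells. By the study's methods the mice were female and 8 to 13 weeks old, and each library was a pool of 10 WT or 9 *Rag1*-/- mice, whereas the labels give 30 WT and 16 *Rag1*-/- mice in all. The labels also name the cells of the WT libraries type 2 and those of the *Rag1*-/- libraries type 3 innate lymphoid cells.

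Cholesterol is built from acetyl-CoA through mevalonate, farnesyl pyrophosphate, squalene and lanosterol. When sterols run low in the endoplasmic reticulum, SCAP carries the transcription factor SREBP2 (gene *Srebf2*) to the Golgi, where it is released to switch on the enzymes of synthesis, and INSIG proteins hold it back when sterols are high. Excess sterol instead activates the liver X receptors (LXRs, genes *Nr1h2* and *Nr1h3*), which induce the exporters ABCA1 and ABCG1 and the ubiquitin ligase IDOL (gene *Mylip*). In skin, keratinocytes and sebocytes make much cholesterol for the permeability barrier and for sebum, and lymphocytes raise synthesis when they grow and divide.

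The libraries differed before any member was considered. WT libraries held between 32939428 and 39477243 counts on genes, and the libraries labelled *Rag1*-/- held 8050562 (pool 2) and 38922750 (pool 7), so that 3 counts are 0.373 CPM (counts for every 1e+06 counts of the library) in pool 2. The level of *Rag1* itself was 0.103, 0 and 0.152 CPM in WT pools 5, 6 and 13 (4, 0 and 5 counts), 0.621 CPM in pool 2 (5 counts) and 1.23 CPM in pool 7 (48 counts). Both libraries labelled *Rag1*-/- were thus above every WT library, an order that 21.9% of all genes tested showed. *Rag1* was not called (log2 fold change 3.53, adjusted p = 0.0865 by edgeR). The direction is the opposite of a loss of its RNA. The part of the gene that was deleted is not given in the sources used here, so that the labels could not be checked by it. Directions below are given by the labels. In pools of cells, fewer cells of a type and less RNA per cell cannot be told apart. Of 27 keratinocyte marker genes all had a negative log2 fold change and 9 were called lower. Their summed level ran from 37060 to 53805 CPM in WT and was 9481 and 22239 CPM in pools 2 and 7 labelled *Rag1*-/-. Of 12 sebocyte markers 11 were negative and none was called, 7 with an unadjusted p under 0.05 by edgeR, and their summed level ran from 3919 to 7769 CPM in WT against 584 and 2296 CPM. All 34 pan-leukocyte markers were positive and 23 were called higher, from 1214 to 2891 CPM in WT to 9235 and 8006 CPM. The ILC2 list was detected in full in every library and was positive in 11 of 11 genes with 4 called (996.9 to 1984 CPM in WT, 4540 and 2599.8 CPM in those labelled *Rag1*-/-), and the ILC3 list in 7 of 7 with 4 called (45.6 to 59.6 CPM against 292 and 184 CPM). Fibroblast (median log2 fold change -0.09), macrophage and Langerhans cell (-0.04), endothelial (-0.47) and T cell (0.75) lists had 0, 1, 0 and 2 genes called by edgeR, all higher, and 0, 1, 1 and 2 genes with an unadjusted p under 0.05. No marker of these lists was at 0 in a library except *Cd8a*, which was at 0 in 2 libraries.

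Promoter sequences are shown for the 1 member past the threshold (*Hmgcs1*) and for 2 of the enzymes near it (*Hsd17b7* and *Lss*). A receptor gene with a positive fold change (*Nr1h2*) is also shown. *Idi1* was nearer to the threshold (adjusted p = 0.0512 by edgeR) and is not shown. Each sequence is the 250 bases before the start in RefSeq on GRCm38.p6, read 5′ to 3′ along the gene. Capitals mark CCAAT boxes on either strand (ATTGG is the complement) and the core of the sterol regulatory element that SREBPs bind.
Hmgcs1 (chr13:119690101-119690350, plus strand): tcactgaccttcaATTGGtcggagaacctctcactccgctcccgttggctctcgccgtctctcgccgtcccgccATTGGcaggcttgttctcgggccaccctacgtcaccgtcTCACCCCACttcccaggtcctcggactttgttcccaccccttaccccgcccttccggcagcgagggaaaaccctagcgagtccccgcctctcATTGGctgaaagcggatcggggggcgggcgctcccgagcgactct
Hsd17b7 (chr1:169969206-169969455, minus strand): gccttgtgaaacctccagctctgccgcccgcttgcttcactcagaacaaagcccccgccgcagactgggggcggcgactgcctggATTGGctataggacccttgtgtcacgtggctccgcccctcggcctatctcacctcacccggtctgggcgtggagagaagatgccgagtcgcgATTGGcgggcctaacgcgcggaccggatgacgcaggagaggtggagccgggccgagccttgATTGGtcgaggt
Lss (chr10:76531355-76531604, plus strand): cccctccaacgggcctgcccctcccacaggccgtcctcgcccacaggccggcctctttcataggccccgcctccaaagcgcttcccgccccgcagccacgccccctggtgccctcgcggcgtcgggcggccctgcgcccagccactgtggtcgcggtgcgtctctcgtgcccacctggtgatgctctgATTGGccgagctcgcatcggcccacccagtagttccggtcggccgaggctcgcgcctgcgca
Nr1h2 (chr7:44553966-44554215, minus strand): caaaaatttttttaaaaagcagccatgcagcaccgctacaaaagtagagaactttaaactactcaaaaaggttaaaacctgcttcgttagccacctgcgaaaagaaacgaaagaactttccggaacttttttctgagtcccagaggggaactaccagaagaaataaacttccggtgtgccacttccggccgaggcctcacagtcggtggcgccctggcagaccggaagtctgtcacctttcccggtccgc

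Of the 31 members, 25 had an entry in the set of RefSeq promoters used here. These gave 32 windows in all, each 250 bases before to 50 bases after a start. *Fdps*, *Fdft1*, *Sqle*, *Npc1*, *Stard4* and *Abcg1* had no entry in this set and were not searched. The core CACCCCAC, searched on both strands in this exact spelling, was found in windows of *Hmgcs1* and *Acat2*. That is 8% of the members matched and 3.3% of all 27025 genes with a window. Other spellings of the sterol element, apart from the related core below, were not searched, so that a window without a match may still hold one. The related core TCACNCCAC, which overlaps the first in *Hmgcs1*, was found in *Hmgcs1* alone among the members and in 1.44% of all genes. In *Hmgcs1* it began 137 bases before the start. CCAAT boxes, bound by NF-Y, which acts beside SREBPs, were present in 20 of 25 members (80%) and in 41.1% of all genes. The GC box GGGCGG, bound by Sp1, was present in 22 of 25 (88%) and 38.2%. No member window held the LXR direct repeat (DR4) in its strict form, which 0.0148% of all genes had. *Nr1h2* held neither a core, a CCAAT box nor a GC box. These are matches of letters in a window and no measured binding, and the comparison set is all genes with a window, expressed here or not.

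The threshold for a difference between the genotypes was passed by 1 of the 31 members in edgeR's fit. *Hmgcs1*, which encodes the cytosolic HMG-CoA synthase at the entry to the mevalonate pathway, was lower in libraries labelled *Rag1*-/-, while none of the other 30 passed in either direction. A call needed an adjusted p under 0.05 and a log2 fold change beyond 1 in either direction, by edgeR's quasi-likelihood test across 19011 genes, of which 2.16% were called lower, 3.57% higher and 5.73% in all. With 1 of 31 members (3.23%) called, the share was near that of all genes. All 31 passed the filter on low counts. Before adjustment, 12 of the 31 members had a p under 0.05 as lower (edgeR), a larger share than the 12.3% of all genes. As higher it was 3 of the 31, a smaller share than the 14.1% of all genes. DESeq2 called 7 members lower (*Dhcr7*, *Fdps*, *Hmgcs1*, *Hsd17b7*, *Idi1*, *Lss* and *Sqle*), or 22.6% of the members against 7.65% of its genes, and none higher, with 2 higher members at an unadjusted p under 0.05.

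All 19 enzymes of synthesis had a negative log2 fold change, with a median of -0.86, where the median over all genes tested was 0.02 and 48.6% of them were negative, and all enzymes but *Hsd17b7* turned positive when the libraries were scaled on the keratinocyte list. Both libraries labelled *Rag1*-/- lay below every WT library in 14 of the 19 enzymes, and in 24.0% of all genes tested. Of the 12 members that regulate, move or export cholesterol, 4 had groups apart as lower (*Insig2*, *Npc1*, *Stard4* and *Abca1*) and 4 as higher (*Npc2*, *Nr1h2*, *Abcg1* and *Mylip*), the latter against 21.9% of all genes. The fold changes of those 4 turned negative when the libraries were scaled on the pan-leukocyte list. In all, 22 of the 31 members had groups that did not overlap, against 45.9% of all genes tested. The members were chosen with results of these data known, so that these shares describe the list and test nothing.

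**Figure D1:**
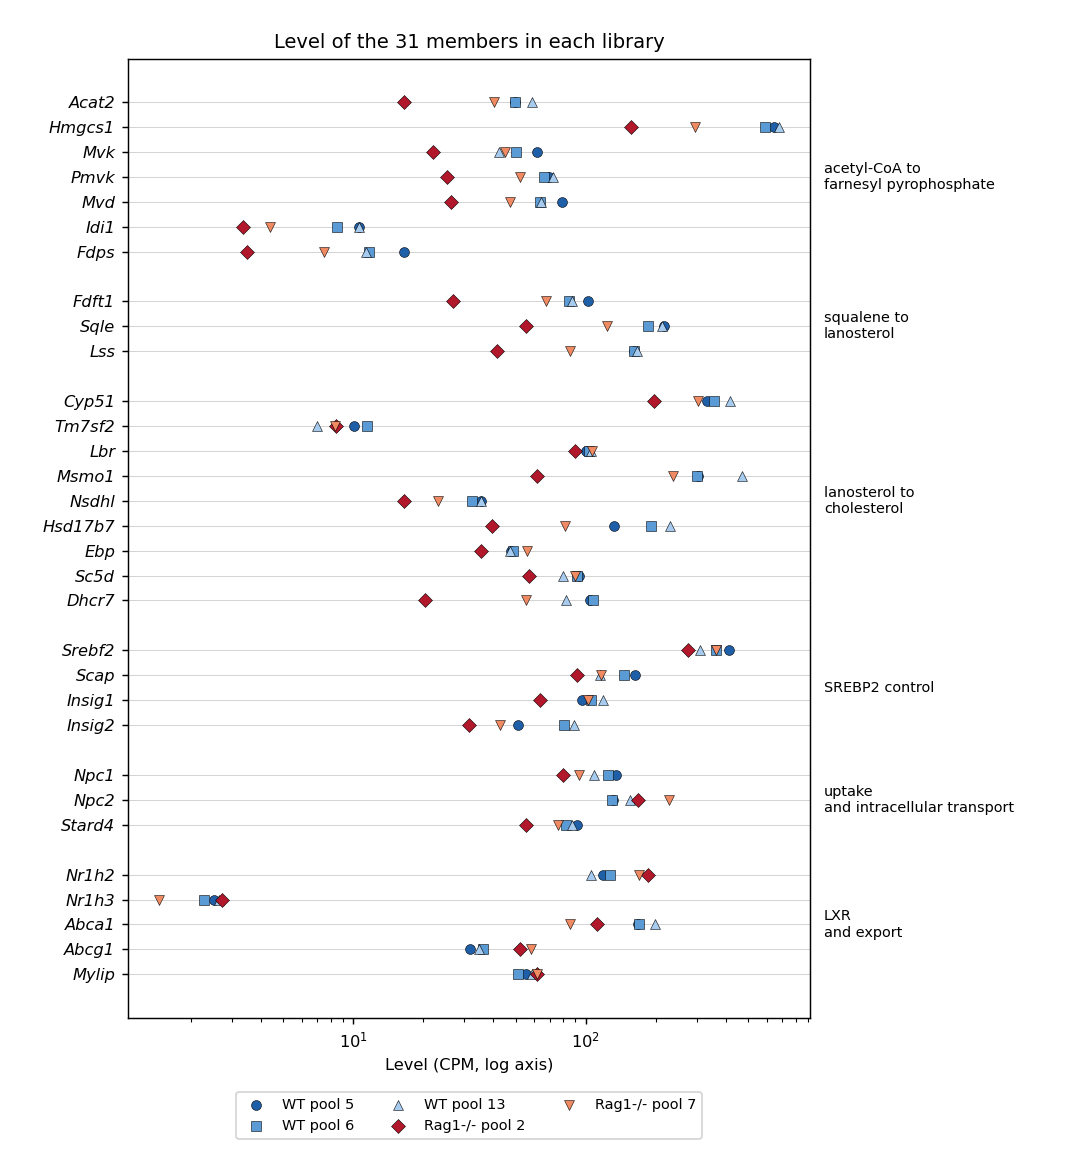
Level of each of the 31 members in the 5 libraries, in CPM on a log axis, grouped by role; circles, squares and upward triangles are WT pools 5, 6 and 13, diamonds and downward triangles pools 2 and 7 labelled *Rag1*-/-. In most enzymes pool 2 is lowest and pool 7 lies between it and WT, as for *Hmgcs1* with 157 and 295 CPM against 592 to 678 CPM in WT.

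*Hmgcs1* (chromosome 13 of GRCm38, 119690462 to 119708086) had 642, 592 and 678 CPM in WT pools 5, 6 and 13, and 157 and 295 CPM in pools 2 and 7 labelled *Rag1*-/-. Both of the latter were below every WT library, and the WT libraries lay within 1.15-fold of each other. Mean levels were 637.5 ± 43.1 CPM for WT (SD, n = 3) against 226 ± 97.6 CPM (SD, n = 2). The log2 fold change was -1.45 with a standard error of 0.32, at an adjusted p of 0.0461 by edgeR's test (0.000286 to 0.976 over 15 alternatives). The call was lost, at a log2 fold change of 0.02, with scaling on the keratinocyte list. It was also lost without WT pool 5 (adjusted p = 0.108), 6 (0.12) or 13 (0.134) and without pool 2 (0.0659), fits in which no gene of the table passed by edgeR and 3521 to 3874 (without a WT pool) or 5200 genes (without pool 2) had an unadjusted p under 0.05. An antisense gene shares 12.1% of its exonic bases, and the TruSeq v2 kit does not mark strand, so that reads from both cannot be told apart there.

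The next steps turn HMG-CoA into mevalonate and then into isoprenoid units. *Acat2*, the cytosolic thiolase that joins acetyl-CoA units ahead of *Hmgcs1*, and the kinases *Mvk* and *Pmvk*, the decarboxylase *Mvd*, the isomerase *Idi1* and the farnesyl pyrophosphate synthase *Fdps* had log2 fold changes between -0.56 (*Mvk*) and -1.30 (*Idi1*), with adjusted p-values from 0.0512 to 0.345 (edgeR). *Idi1* had 10.6, 8.54 and 10.6 CPM in WT and 3.35 and 4.37 CPM in libraries labelled *Rag1*-/-. Its 27 counts in pool 2 give a 95% exact binomial interval of 2.21 to 4.88 CPM, which covers counting error only and ends below the lowest WT interval, from 7.65 CPM. *Idi1* passed with DESeq2 (adjusted p = 0.00151, range over the alternatives 0.000845 to 0.765). *Mvk* alone of these had groups that overlapped, since pool 7 (44.8 CPM) was above WT pool 13 (42.4 CPM). The summed level of the 7 genes was 929, 842 and 938 CPM in WT and 254 and 491 CPM in libraries labelled *Rag1*-/-. *Fdps* is uncertain, since 26.7% of its exonic bases lie in another gene on the same strand.

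Squalene synthesis and its closure to lanosterol had the lowest median of the 6 roles, -1.14 over 3 genes. *Sqle*, the squalene monooxygenase and a rate-limiting enzyme of the pathway, had 217, 185 and 213 CPM in WT and 55.5 and 123.5 CPM in pools 2 and 7 labelled *Rag1*-/-. All WT libraries were above both libraries labelled *Rag1*-/-, and pool 7 had 2.22 times the level of pool 2. *Lss*, the lanosterol synthase that closes the sterol rings, was the steadiest of the 3 in WT at 161, 161.5 and 167 CPM, against 41.4 and 85.8 CPM. Their log2 fold changes were -1.14 (standard error 0.35, adjusted p = 0.0984) and -1.31 (0.33, adjusted p = 0.0618, edgeR for both), and both passed with DESeq2 (adjusted p = 0.0154 and 0.00262). Over the alternatives the adjusted p-value ran from 0.000772 to 0.696 for *Sqle* and from 0.000515 to 0.856 for *Lss*. *Fdft1*, the squalene synthase, had a log2 fold change of -0.90 (95% interval -1.80 to 0.01), and shares 18.3% of its exonic bases with *Ctsb* on the opposite strand.

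From lanosterol to cholesterol the 9 enzymes differed among themselves. *Hsd17b7*, a sterol ketoreductase, had the lowest fold change of all members, with 132.5, 192 and 231 CPM in WT and 39.5 and 81.5 CPM in libraries labelled *Rag1*-/- (log2 fold change -1.56 ± 0.39, standard error, at an adjusted p of 0.0609 by edgeR, 0.000361 to 0.823 over the alternatives). WT libraries differed by 1.74-fold here, the widest among the enzymes, and the groups stayed apart. *Msmo1*, the methyl sterol oxidase, *Nsdhl*, which acts with it at the C4 position, and *Dhcr7*, the reductase of the last step, had log2 fold changes of -1.21, -0.74 and -1.31 with groups apart. *Cyp51*, the lanosterol demethylase, had 331, 355 and 416 CPM in WT and 197 and 304 CPM in libraries labelled *Rag1*-/-, so that pool 7 stood just under WT (log2 fold change -0.51, 95% interval -1.14 to 0.11). In contrast, *Ebp*, *Sc5d*, *Lbr* and *Tm7sf2* had overlapping groups and log2 fold changes from -0.22 to -0.02.

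*Lbr* and *Tm7sf2* both encode sterol C14 reductases, and *Lbr* is also a receptor for lamins in the inner nuclear membrane. *Lbr* had 99.8, 103 and 105 CPM in WT and 89.9 and 106 CPM in libraries labelled *Rag1*-/-, a log2 fold change of -0.03 with a 95% interval of -0.46 to 0.41. Per kilobase of exonic length its level in WT was 21.5 ± 0.541 CPM (SD, n = 3), against 2.16 ± 0.526 CPM for *Tm7sf2*. Per kilobase of the deposited transcript length the WT means were 29.2 and 7.05 CPM, so that the size of this gap depends on the length used. The number of *Hmgcs1* counts per *Lbr* count, which no scaling of libraries can move, was 6.43, 5.75 and 6.46 in WT and 1.75 and 2.77 in libraries labelled *Rag1*-/-. *Hmgcs1* was thus lower relative to *Lbr* in both libraries labelled *Rag1*-/-, a pair chosen after the values were seen. Other genes share 10.7% of the exonic bases of *Lbr* and 12.1% of those of *Tm7sf2*, the latter on the same strand.

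**Figure D2:**
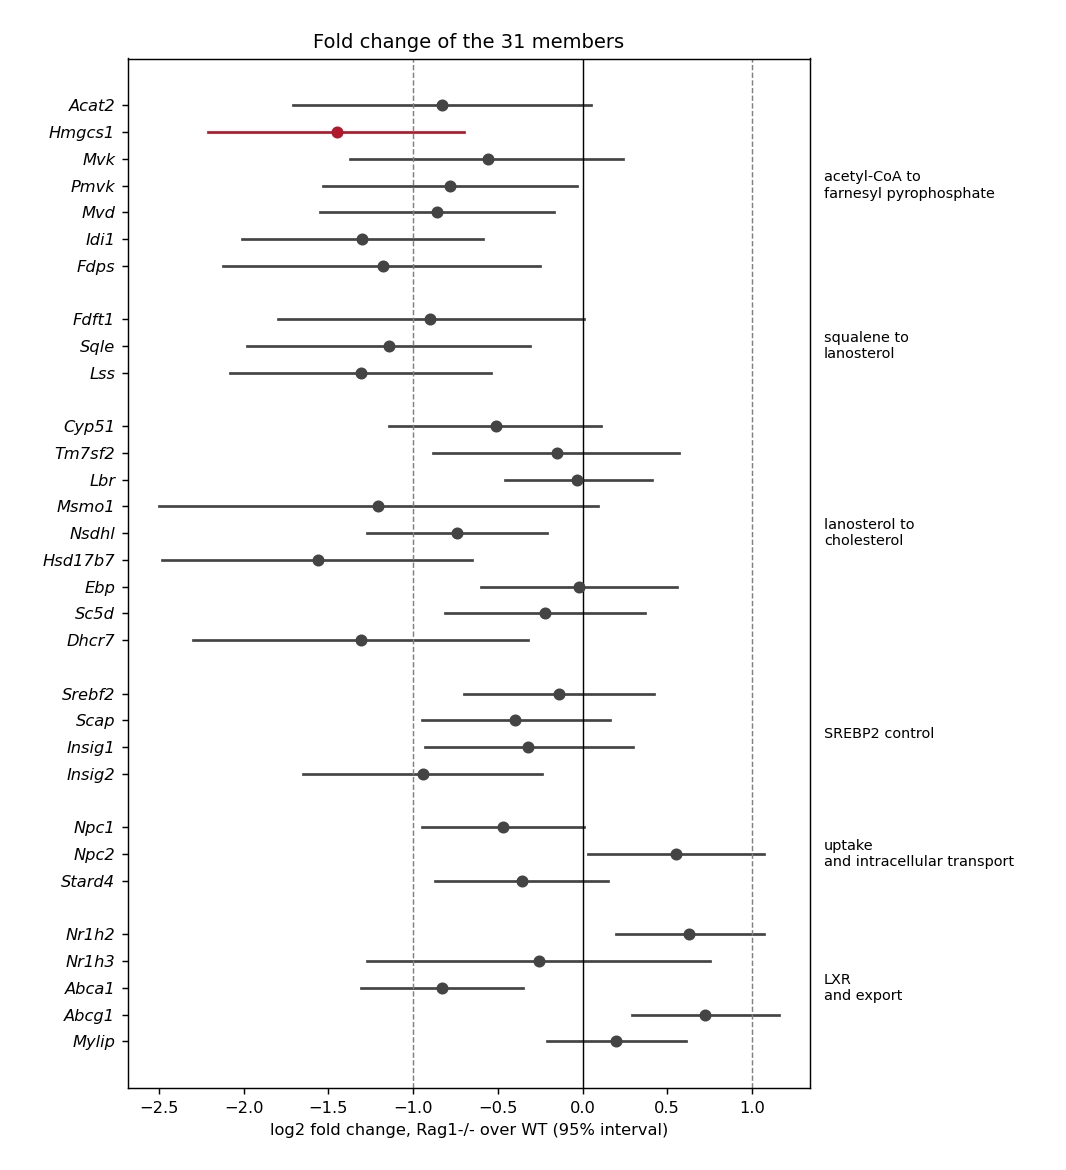
log2 fold change of each member, *Rag1*-/- over WT, with its 95% interval from edgeR's quasi-likelihood fit; dashed lines mark a log2 fold change of 1 in either direction and red the member called. *Hmgcs1* alone is called at -1.45, and the intervals of *Npc2*, *Nr1h2* and *Abcg1* lie above 0; scaled on the keratinocyte list, the enzymes except *Hsd17b7* turn positive.

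Control genes of the SREBP2 pathway numbered 4, with a median of -0.36 on the log2 scale and none of them called (1 with an unadjusted p under 0.05, edgeR). *Srebf2* had 411, 361 and 309 CPM in WT and 276 and 361 CPM in libraries labelled *Rag1*-/-, so that pool 7 equalled WT pool 6 (log2 fold change -0.14, 95% interval -0.70 to 0.42, adjusted p = 0.766 by edgeR). *Insig1*, itself a known SREBP2 target, had 96.6, 105 and 118.5 CPM in WT and 63.3 and 103 CPM in libraries labelled *Rag1*-/-, again with pool 7 among the WT values (-0.32, 95% interval -0.93 to 0.30). *Insig2*, the second INSIG gene, had 51.0, 80.3 and 89.1 CPM in WT and 31.6 and 42.8 CPM in those labelled *Rag1*-/-, without overlap (-0.94, adjusted p = 0.106). *Scap* had a log2 fold change of -0.40 with overlapping groups, and shares 13.2% of its exonic bases with a gene on the opposite strand. The ratio of *Hmgcs1* to *Srebf2* counts was 1.56, 1.64 and 2.19 in WT and 0.568 and 0.817 in libraries labelled *Rag1*-/-. These are transcript levels and do not show how much SREBP2 was processed.

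Genes of intracellular transport had fold changes of either sign, and none was called (edgeR), with *Npc2* at an unadjusted p under 0.05. NPC2 and NPC1 hand cholesterol from endocytosed lipoproteins out of the lysosome. *Npc1* had 135, 125 and 108 CPM in WT and 79.6 and 93.3 CPM in libraries labelled *Rag1*-/-, with a log2 fold change of -0.47 (95% interval -0.95 to 0.01). *Npc2* had 131, 129 and 155.5 CPM in WT and 167 and 228 CPM in those labelled *Rag1*-/- (0.55, 95% interval 0.03 to 1.07, adjusted p = 0.168 by edgeR). The counts of *Npc2* per count of *Npc1* were 0.971, 1.03 and 1.44 in WT and 2.1 and 2.44 in libraries labelled *Rag1*-/-. *Stard4*, a soluble sterol carrier and SREBP2 target, had a log2 fold change of -0.36, with 82.6 to 91.3 CPM in WT and 55.4 and 76.3 CPM in those labelled *Rag1*-/-.

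The exporters differed from each other in direction. *Abca1*, which loads cholesterol onto lipid-poor apolipoproteins, had 168, 169.6 and 198 CPM in WT and 112 and 85.2 CPM in pools 2 and 7 labelled *Rag1*-/- (log2 fold change -0.83 ± 0.20, standard error, at an adjusted p of 0.0585 by edgeR). *Abcg1*, which passes cholesterol to formed particles, had 31.8, 36.0 and 34.7 CPM in WT and 52.3 and 57.9 CPM in those labelled *Rag1*-/- (0.72, standard error 0.18, adjusted p = 0.063 by edgeR). Neither group overlapped with the other in either gene. DESeq2 gave adjusted p-values of 0.00281 and 0.0255 with log2 fold changes of -0.87 and 0.69, under the threshold of 1, and over the alternatives the adjusted p-value ran from 0.00199 to 0.179 for *Abca1* and from 0.000478 to 0.188 for *Abcg1*. The counts of *Abca1* per count of *Abcg1*, free of any scaling, were 5.27, 4.72 and 5.71 in WT and 2.14 and 1.47 in those labelled *Rag1*-/-. *Abca1* was also one of the 2 members with a lower level in pool 7 than in every other library, *Nr1h3* being the other, whereas 24 of the 31 members were lowest in pool 2.

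*Nr1h2*, which encodes LXRβ, the widely expressed LXR, had 118.5, 127 and 105 CPM in WT and 185 and 170.1 CPM in libraries labelled *Rag1*-/- (log2 fold change 0.63 ± 0.19, standard error, at an adjusted p of 0.0878 by edgeR). Both libraries labelled *Rag1*-/- were above every WT library. *Nr1h3*, which encodes LXRα, common in macrophages and liver, had 2.53, 2.28 and 2.64 CPM in WT and 2.73 and 1.46 CPM in those labelled *Rag1*-/-, with 22 counts in pool 2 (95% exact binomial interval 1.71 to 4.14 CPM) and 57 counts in pool 7 (1.11 to 1.90 CPM). Pool 2 was the highest library and pool 7 the lowest, and no difference between the groups was detected (-0.26, 95% interval -1.27 to 0.75). Per kilobase of exonic length, the WT level was 34.8 ± 3.31 CPM for *Nr1h2* and 0.987 ± 0.0734 CPM for *Nr1h3* (SD, n = 3). *Mylip*, an LXR target that marks lipoprotein receptors for degradation, had 51.1 to 58.6 CPM in WT and 61.9 and 61.5 CPM in those labelled *Rag1*-/- (0.20, 95% interval -0.21 to 0.61).

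Per kilobase of exonic length, *Hmgcs1* had the highest level of the members in WT, at 138.8 ± 9.40 CPM, followed by *Cyp51* (83.2 ± 9.94), *Msmo1* (58.4 ± 15.9) and *Srebf2* (50.2 ± 7.06, SD, n = 3), with overlapping libraries between *Cyp51* and *Msmo1* and between *Msmo1* and *Srebf2*. In libraries labelled *Rag1*-/- *Cyp51* (56.7 ± 17.2), *Nr1h2* (52.9 ± 3.06), *Hmgcs1* (49.2 ± 21.3) and *Srebf2* (44.4 ± 8.37, SD, n = 2) led, and each overlapped with the next in this order. *Nr1h3* was last in both groups, with *Tm7sf2* and *Idi1* just above it in WT. This order depends on the length used. Per kilobase of the deposited transcript length, given as 352 bases for *Lss*, that gene led in WT at 463.4 CPM.

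The libraries labelled *Rag1*-/- differed from each other in level. Of the 19 enzymes, 18 had their lowest level in pool 2, against 31.5% of all genes tested, and 14 had pool 7 between pool 2 and the lowest WT library, an order that 16.2% of all genes tested showed. The level in pool 7 was 1.30 (*Idi1*) to 3.82 (*Msmo1*) times that in pool 2 in the 14 enzymes whose groups were apart. The summed level of the 19 enzymes was 2567, 2515 and 2881 CPM in WT and 903.5 and 1730 CPM in pools 2 and 7 labelled *Rag1*-/-. Without pool 2, the median log2 fold change of the enzymes was -0.48 and 16 of 19 were below the median of all genes. Without pool 7, the median of the enzymes was -1.62 and all 19 were below the median of all genes.

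**Figure D3:**
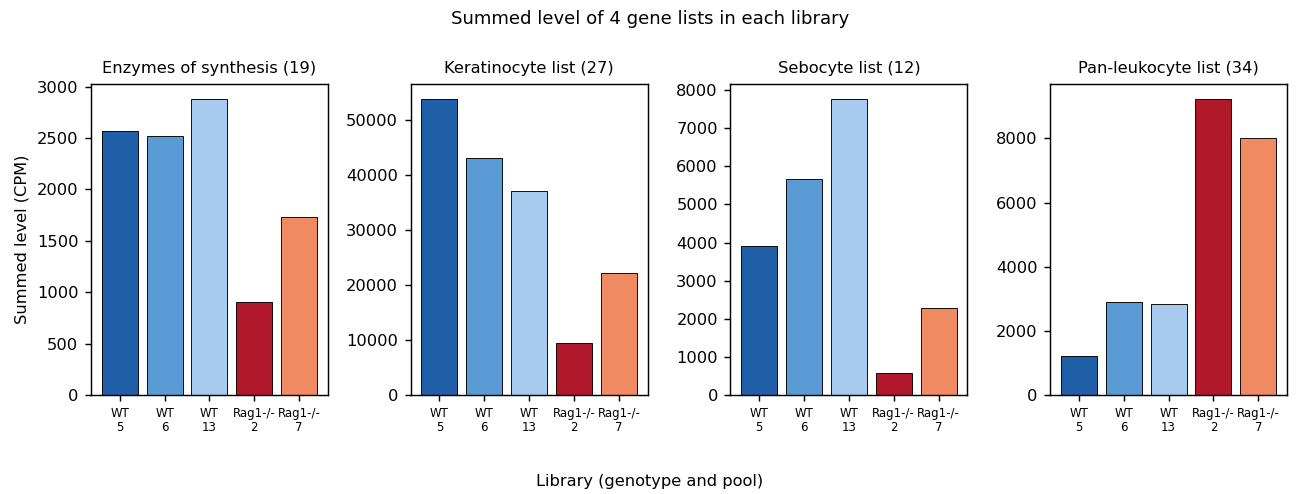
Summed level in CPM, from 0, of the 19 enzymes of synthesis and of 3 marker lists in each library, WT in blue and *Rag1*-/- in red; numbers under the bars are pools. The enzymes stand at 2515 to 2881 CPM in WT and 903.5 and 1730 CPM in those labelled *Rag1*-/-, and the keratinocyte and sebocyte lists have the same lowest library, pool 2. Within WT, the enzymes and the sebocyte list are highest in pool 13, where the keratinocyte list is lowest.

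The median log2 fold change was -1.47 over the 27 keratinocyte genes (9 called lower) and -1.99 over the 12 sebocyte genes (none called by edgeR, 7 with an unadjusted p under 0.05, and 8 with overlapping groups), both further from 0 than the -0.86 of the enzymes. For each 100 counts on the keratinocyte list, the enzymes had 4.77, 5.85 and 7.77 counts in WT and 9.53 and 7.78 in pools 2 and 7 labelled *Rag1*-/-, so that relative to these markers they were not lower in libraries labelled *Rag1*-/-. For each 100 counts on the sebocyte list, they had 37.1 to 65.5 in WT and 155 and 75.3 in those labelled *Rag1*-/-. Most of that list's summed level came from *Scd1*, with a mean of 4172 of 5783 CPM in WT and 1005 of 1440 CPM in those labelled *Rag1*-/-. For each 100 pan-leukocyte counts, the enzymes had 87.0 to 211 in WT and 9.78 and 21.6 in those labelled *Rag1*-/-. The part of these cells in the levels of the members was not tested.

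Scaled on the keratinocyte list, the median of all genes tested was 1.67 and *Hmgcs1* had a log2 fold change of 0.02 (adjusted p = 0.976, edgeR). None of the members was then called lower (edgeR, none with an unadjusted p under 0.05), and 9 were called higher, *Abcg1*, *Ebp*, *Lbr*, *Mylip*, *Npc2*, *Nr1h2*, *Sc5d*, *Srebf2* and *Tm7sf2*, or 29% of the members against 57.3% of all genes. Scaled on the pan-leukocyte list, the median of all genes was -2.12 and 28 members were called lower, or 90.3% against 67.3% of all genes, and *Npc2*, *Nr1h2* and *Abcg1* were not. A scaling moves all genes nearly alike, and in each (TMM, keratinocyte and pan-leukocyte) 27 members and all 19 enzymes were below the median of all genes. *Hmgcs1* stood at -1.65 relative to that median with the keratinocyte list and at -1.47 with the others.

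**Figure D4:**
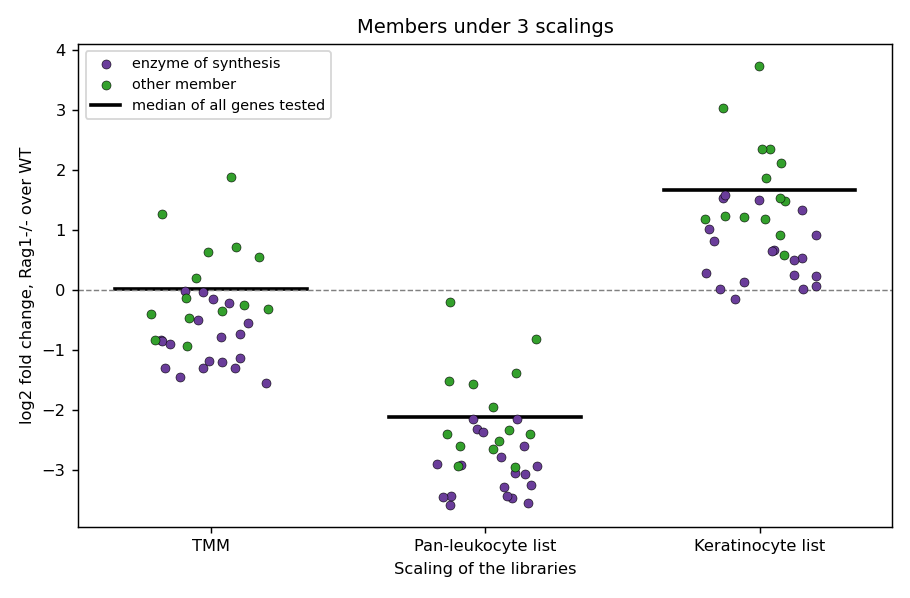
log2 fold change of the 31 members, and of *Gramd1a* and *Gramd1b* outside the list, *Rag1*-/- over WT. Libraries were scaled by TMM, on the pan-leukocyte list or on the keratinocyte list. Violet points are enzymes and green points other members. *Gramd1a* and *Gramd1b*, which are not members, are also drawn in green (1.26 and 1.88 with TMM). Sideways spread has no meaning, and black lines are the median of all genes tested (0.02, -2.12 and 1.67). The direction of the members depends on the scaling, being mostly negative, all negative and mostly positive, and 27 of the 31 members lie below the line in each.

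Other genes of sterol metabolism were taken from a list of 32 genes outside the members. None was called lower and 2 were called higher, against 2.16% and 3.57% of all genes, and by unadjusted p 5 were lower and 5 higher (edgeR). Both genes called encode Aster proteins, which carry cholesterol from the plasma membrane to the endoplasmic reticulum. *Gramd1a* had 187, 269.5 and 237.5 CPM in WT and 643 and 444 CPM in libraries labelled *Rag1*-/- (log2 fold change 1.26 ± 0.25, standard error, at an adjusted p of 0.0378 by edgeR). *Gramd1b* had 16.3, 22.7 and 21.3 CPM in WT and 98.5 and 47.6 CPM in those labelled *Rag1*-/- (1.88, standard error 0.32, adjusted p = 0.0308 by edgeR). The groups were apart in both, and the median of the 32 genes was -0.18. Both calls were lost with scaling on the pan-leukocyte list, where the log2 fold changes were -0.82 and -0.21. They were also lost without any 1 WT pool, fits in which no gene of the table passed by edgeR. These losses are thus not particular to the 2 genes. Without pool 2, which leaves 1 library in its group, the log2 fold changes were 1.01 and 1.31.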

How the data were processed

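The authors sequenced RNA of sorted dILC2s (TruSeq RNA v2, single reads of 50 bases), aligned it with STAR 2.5 and deposited counts per gene from featureCounts 1.5.0-p1 (per the labels, which list GRCm38 and GRCm39, the study's methods naming the former). They also deposited a normalized signal per symbol, whose scaling is not given in the sources used here. The signal served only an alternative (limma on log2 of the deposited signal, pseudocount 1). The deposited transcript length in bases, which the authors' annotation gave as 1 value per gene, was set aside for merged exons of GENCODE M21, whose chromosomes matched for 31 of 31 members and both ends for 22. Members and lists were chosen with earlier results of these data known.

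CPM is the count over the library's total. The genotype term was fitted in R 4.3.3 by edgeR 4.0.16 after filterByExpr and TMM scaling, and p-values of its quasi-likelihood test were adjusted over 19011 genes (Benjamini-Hochberg). A standard error is the log2 fold change over the root of F. Library values are given for the 5 members with the smallest adjusted p in each direction (4 were positive) and for leading members of each role, and for further members chosen after their values were seen. Alternatives were DESeq2 1.42.0, limma 3.58.1, RLE, library size alone, scaling on 2 marker lists, a fit of all genes, a minimum of 10 counts in each library, a robust fit, thinning to the smallest library, the adjusted p alone, and leaving out each library. The replicates are separate pools of mice, so that p-values rest on the spread between pools. An exact permutation test of 3 libraries against 2 has 10 splits and cannot go below 0.1, so none was run. *Cd37* had a pair of rows, of which the first was used.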

Additional observations from a re-analysis of the deposited data

How the results depend on the processing

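No paired analysis was possible because the groups share no replicate numbers. The number of members called, 1 in the fit as reported, was 7 with DESeq2, 4 with limma on the deposited signal, 2 with library size alone, 28 with the pan-leukocyte scaling, 9 with the keratinocyte scaling (all higher), 9 without a filter, 4 with at least 10 counts in every library, 2 with the robust fit, 3 after thinning, and 0 to 14 with a library left out. The number of genes called, 1090 as reported, was 2453 with DESeq2, 12806 and 10967 with the pan-leukocyte and keratinocyte scalings, 2645 without a filter, and 0 to 2409 with a library left out, 0 without any WT pool or *Rag1*-/- pool 2 (edgeR) and 2409 without *Rag1*-/- pool 7. Where 1 *Rag1*-/- library remained, it was assumed to vary like the WT libraries. RLE scaling and the adjusted p alone kept 1 member. As lower, limma called 12.9% of the members against 2.86% of all genes, and library size alone 6.45% against 2.56%. These shares were 29% against 4.98% without a filter and 12.9% against 4.54% with at least 10 counts. They were 6.45% against 2.28% with the robust fit and 9.68% against 3.34% after thinning. In these fits no member was called higher, against 3.21% to 6.06% of all genes. *Hmgcs1* was called lower in 10 of 15 alternatives, *Idi1* in 8, *Lss* and *Hsd17b7* in 7.

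With the pan-leukocyte scaling, which moved the median of all genes to -2.12, the sign turned for *Npc2* (-1.57), *Nr1h2* (-1.53), *Abcg1* (-1.39), *Mylip* (-1.96), *Gramd1a* (-0.82) and *Gramd1b* (-0.21). With the keratinocyte scaling (median 1.67) it turned for 26 members, namely *Acat2* (0.54), *Hmgcs1* (0.02), *Mvk* (0.91), *Pmvk* (0.66), *Mvd* (0.65), *Idi1* (0.24), *Fdps* (0.25), *Fdft1* (0.50), *Sqle* (0.28), *Lss* (0.13), *Cyp51* (1.01), *Tm7sf2* (1.54), *Lbr* (1.59), *Msmo1* (0.02), *Nsdhl* (0.82), *Ebp* (1.50), *Sc5d* (1.33), *Dhcr7* (0.07), *Srebf2* (1.48), *Scap* (1.24), *Insig1* (1.19), *Insig2* (0.59), *Npc1* (1.18), *Stard4* (1.22), *Nr1h3* (1.54) and *Abca1* (0.91). These shifts follow from the scaling itself. *Nr1h3* turned to 0.04 after thinning. With a library left out, log2 fold changes ran from -0.34 to 0.02 for *Tm7sf2*, -0.25 to 0.12 for *Lbr*, -0.50 to 0.30 for *Ebp*, -0.69 to 0.10 for *Sc5d*, -0.45 to 0.07 for *Srebf2*, -0.81 to 0.02 for *Insig1* and -0.69 to 0.08 for *Nr1h3*, and the cause was not tested. *Nr1h3* and *Idi1* had 22 and 27 counts in *Rag1*-/- pool 2, which limits their precision there.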
